A study of Mus musculus with 16 samples.

Results

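Ythdf1, Ythdf2 and Ythdf3 encode the cytoplasmic YTHDF proteins, and each gene had exactly 1 site in the deposited list of 622 differential m6A sites in 586 genes. The 3 genes were picked by name, and the list itself was selected on the authors' own test of genotype, so the presence of the 3 genes in it is where the description starts and is not a finding. m6A-seq, in which fragmented mRNA is enriched with an antibody to N6-methyladenosine, had been carried out on whole liver from 4 wild type mice (Albumin-Cre;Mettl14+/+) and 4 mice with a liver-specific knockout (Albumin-Cre;Mettl14 flox/flox), and each mouse gave 1 INPUT library and 1 m6A-IP library, 16 libraries in all. All 8 mice had been fed a high-fat diet and both genotypes carried the Cre, and the ages of the mice were not given in the sources used here. The albumin promoter drives Cre in hepatocytes, so other cells of the liver keep a working Mettl14 in the knockout. The list holds no value per mouse, so neither the depth of a library, nor the knockout of Mettl14 (0 sites in the list), nor the liver markers could be checked from it. Its fold changes and p-values are the authors' comparison and were not used, and the text below therefore gives the place and sequence features of the sites, with no size or direction of the knockout effect.

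Mettl14 forms, together with the catalytic subunit Mettl3, the core of the complex that writes m6A on nascent mRNA, mostly within the sequence RRACH (R stands for a purine and H for any base but G). YTHDF proteins are readers of the mark: their C-terminal YTH domain holds the methylated adenosine in an aromatic pocket, while the long N-terminal part is of low complexity. Ythdf2 is best known for recruiting the CCR4-NOT deadenylase to methylated mRNA, and all 3 proteins have been linked to the turnover of such mRNA. In transcripts generally, m6A is found most often near stop codons and in long internal exons.

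The sites of Ythdf1 and Ythdf2 are shown as DNA, 5′ to 3′ on the transcript strand of GRCm38 (mm10), because their letters and their places in the coding sequence are what the comparison of the paralogs rests on. Capitals mark the matches to RRACH.

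Ythdf1 site, chr2:180910782-180910831, minus strand: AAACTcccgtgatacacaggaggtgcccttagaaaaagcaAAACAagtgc

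Ythdf2 site, chr4:132204437-132204486, minus strand: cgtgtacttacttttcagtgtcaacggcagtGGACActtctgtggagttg

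All 3 sites were exonic, 50 nt long and unspliced, which is the size of a single bin of the authors' analysis, and each lay wholly in the coding sequence (CDS) of its gene. The Ythdf1 site (ENSMUSG00000038848.14) lay in exon 5 of 6 of transcript Ythdf1-202, the Ythdf2 site (ENSMUSG00000040025.17) in exon 4 of 5 of Ythdf2-203, and the Ythdf3 site (ENSMUSG00000047213.14) in exon 5 of 6 of Ythdf3-202. In every case this was the next to last exon of the transcript. No other annotated gene overlapped any of the 3 sites.

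The host exons were the large coding exons of the family. The Ythdf1 exon (chr2:180910687-180912207) was 1521 nt long and held 86.5% of the CDS. The Ythdf2 exon (chr4:132204132-132205715) was 1584 nt long and held 91.2% of the CDS. The Ythdf3 exon (chr3:16203826-16205424) was 1599 nt long and held 89.4% of the CDS. The next longest internal exon of these transcripts had only 81 nt in Ythdf1, 80 nt in Ythdf2 and 86 nt in Ythdf3. In the alignment of the 3 proteins the first and last codons of the 3 exons fell on the same columns, 83 and 627, so the 3 sites lay in homologous exons.

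Within this shared exon the sites lay at different places. The midpoint of the Ythdf1 site was at nt 1614 of a CDS of 1758 nt, 91.8% of the way along it and 145 nt before the stop codon. The midpoint of the Ythdf2 site was at nt 1386 of 1737 nt, or 79.8% of the CDS, 352 nt before the stop codon. The Ythdf3 site was far upstream of both, with its midpoint at 31.0% of a CDS of 1788 nt. From 5′ to 3′ the order was therefore Ythdf3, Ythdf2, Ythdf1.

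**Figure D1:**
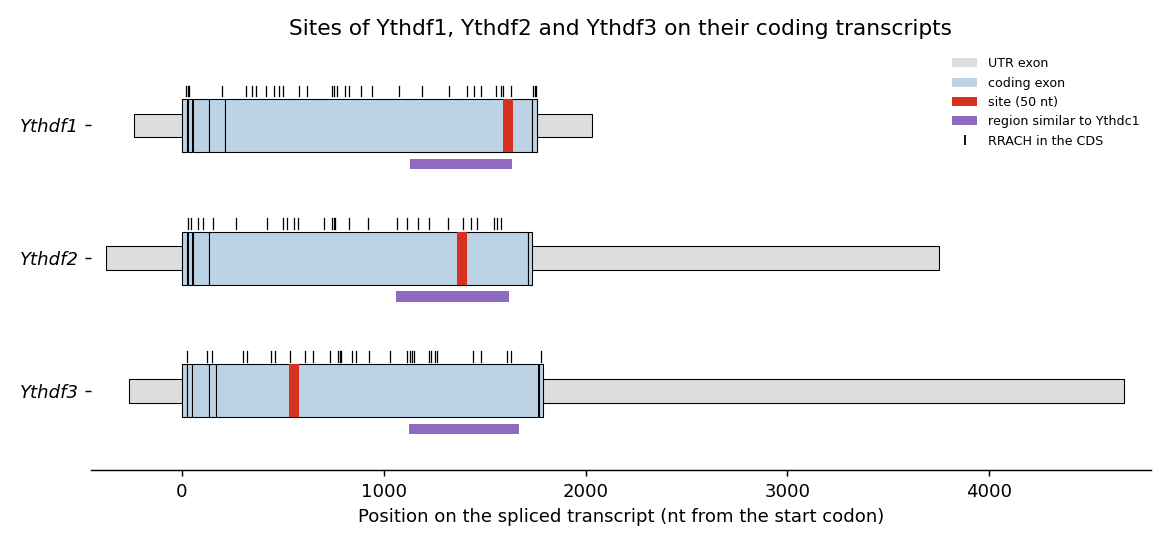
Map of the 3 coding transcripts, with the position on the spliced transcript in nt from the start codon on the x axis and 1 row per gene. Boxes are exons (pale blue where coding, grey where untranslated) and red is the 50-nt site. The purple bar below is the stretch similar to the protein of Ythdc1, and ticks above mark every RRACH of the CDS. All 3 sites lie in the long next to last exon, at 91.8% of the CDS in Ythdf1, 79.8% in Ythdf2 and 31.0% in Ythdf3.

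The exon junctions were also at unlike distances. The Ythdf1 site began 1376 nt after the upstream junction and ended 95 nt before the downstream one. The Ythdf2 site was 1229 nt from the upstream and 305 nt from the downstream junction. The sites of Ythdf1 and Ythdf2 were thus nearer to the 3′ end of the exon, and that of Ythdf3 nearer to its 5′ end.

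Not every annotated coding transcript of these genes holds the site, although every one with a CDS of at least 1677 nt does. The Ythdf3 site was exonic in 3 of 3 coding transcripts, and its exon had 1599 nt in each of them. The Ythdf1 site was in 2 of 3, with the same exon length in both. The third Ythdf1 transcript is short, with a CDS of 551 nt. The Ythdf2 site was in 1 of 3, since the other two, both short, lack that stretch. The authors' counts were adjusted for the INPUT reads of the whole gene, which cannot tell these transcripts apart, and whether their shares differed between the genotypes was not tested.

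To ask whether the paralogs carried the site at the same place of the protein, the 3 proteins were aligned and the codons that each site touches were carried over. The Ythdf1 site covered codons 530 to 547 of 586, the Ythdf2 site codons 454 to 471 of 579, and the Ythdf3 site lay in the N-terminal part of a protein of 596 codons. No pair overlapped: carried over to the paralog, the midpoint of the Ythdf1 site was 70 codons from that of Ythdf2, and both were farther than this from that of Ythdf3. The places were the same with pairwise global alignments. The stretch of Ythdf2 aligned to the Ythdf1 site began 161 nt after the last base of the Ythdf2 site. Reads of a methylated base can fall in bins beside it, and only bins past the cutoff are listed. The lack of overlap of these bins therefore does not show that Ythdf1 and Ythdf2 are methylated at different places.

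The YTH domain was located by local alignment to the protein of Ythdc1, a nuclear YTH reader. The similar region ran from codon 377 to 546 in Ythdf1, from 355 to 540 in Ythdf2 and from 375 to 557 in Ythdf3, with 28.2% to 31.7% identity to Ythdc1. With Ythdc2, another YTH protein, as the partner, it ran from 337 to 549, from 411 to 543 and from 428 to 560. The first codon of the region thus depended on the partner, and its edges are approximate. Of the 18 codons touched by each site, 17 were within the region similar to Ythdc1 for Ythdf1 and 18 for Ythdf2. For Ythdf3 the number was 0, and the whole site lay before the region began. The Ythdf1 and Ythdf2 sites were therefore in sequence that encodes the m6A-binding domain, whereas the Ythdf3 site was in sequence that encodes the N-terminal part.

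This difference went along with how conserved the encoded residues were. Over the whole protein, 69.2% of the aligned residues were identical between Ythdf1 and Ythdf2, 71.9% between Ythdf1 and Ythdf3 and 70.6% between Ythdf2 and Ythdf3. With the region similar to Ythdc1 taken as the YTH region, the identity was 80.5% to 81.3% in it and 63.5% to 67.3% outside it. The identity was not computed with the edges from Ythdc2. At the codons of the Ythdf1 site, 18 of 18 residues were identical in each of the other two proteins. At the codons of the Ythdf2 site, 18 of 18 were identical in Ythdf1 and 17 of 18 in Ythdf3. At the codons of the Ythdf3 site, only 10 of 18 were identical in Ythdf1 and 10 of 18 in Ythdf2.

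**Figure D2:**
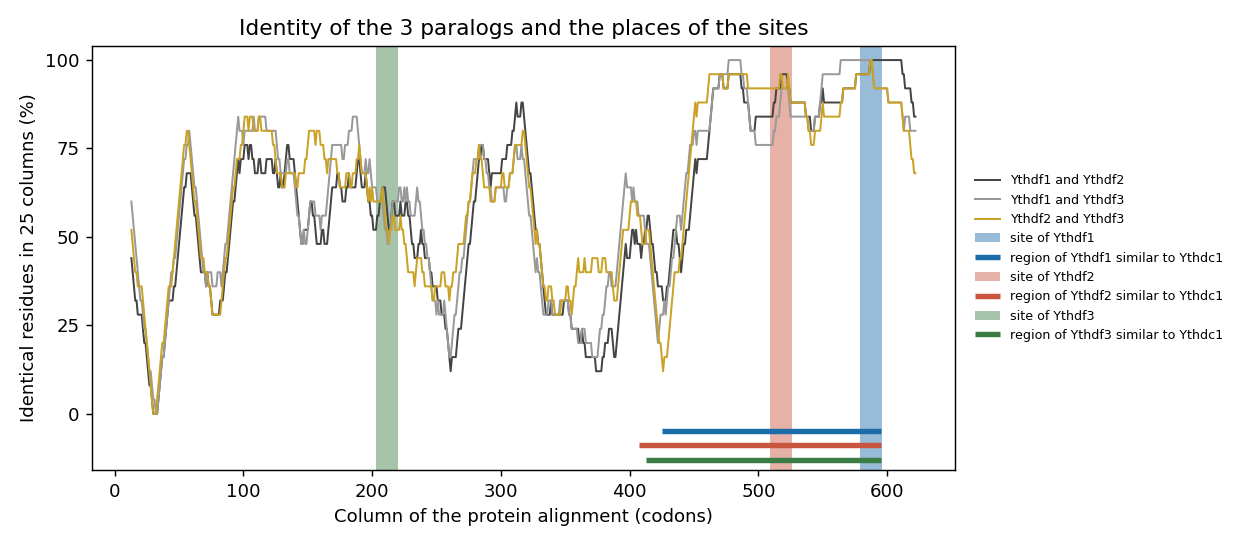
Share of identical residues in sliding windows of 25 columns (y axis, percent) along the alignment of the 3 proteins (x axis, columns of 1 codon), with 1 line per pair of paralogs. Shaded bands are the codons of each site and the bars below 0 are the regions similar to Ythdc1. The Ythdf1 and Ythdf2 sites lie in the conserved C-terminal region and the Ythdf3 site lies before it.

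The nucleotides of these stretches had diverged more than the residues in the C-terminal sites. Of the 50 nt of the Ythdf1 site, 36 (72%) were shared with Ythdf2 and 38 (76%) with Ythdf3, although all the encoded residues were identical. Of the Ythdf2 site, 39 nt (78%) were shared with Ythdf1 and 40 nt (80%) with Ythdf3. Of the Ythdf3 site, 32 nt (64%) were shared with Ythdf1 and 34 nt (68%) with Ythdf2.

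The RRACH matches of the sites differed in letters as well as in number. The Ythdf1 site held 2 matches, AAACT at its first base and AAACA from its base 41, and it held no GGAC, the core most often seen at m6A. The Ythdf2 site held 1 match, GGACA from base 32. The Ythdf3 site also held 1 match and it too was GGACA. The candidate adenosine, the A before the C, was at the third position of its codon in 3 of these 4 matches (codon 544 of Ythdf1, codon 465 of Ythdf2 and the match of Ythdf3) and at the second position in codon 531 of Ythdf1.

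To see whether the motif was kept where the residues were kept, the sites of Ythdf1 and Ythdf2 are shown with the stretches of their paralogs that encode the aligned residues, again with RRACH in capitals. The place of the Ythdf1 site is the following.

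Ythdf1 site: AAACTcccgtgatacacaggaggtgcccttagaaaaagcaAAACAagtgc

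Ythdf2, chr4:132204227-132204276, minus strand: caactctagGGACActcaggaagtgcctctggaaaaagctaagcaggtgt

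Ythdf3, chr3:16205280-16205329, plus strand: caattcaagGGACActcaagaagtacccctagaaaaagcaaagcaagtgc

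Neither RRACH of Ythdf1 was a match at the aligned place of a paralog. Both paralogs instead held a GGACA from base 10 of the stretch, where Ythdf1 has none, yet the list had a site here only for Ythdf1. The place of the Ythdf2 site is the following.

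Ythdf2 site: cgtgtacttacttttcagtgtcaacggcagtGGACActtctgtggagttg

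Ythdf1, chr2:180910992-180911041, minus strand: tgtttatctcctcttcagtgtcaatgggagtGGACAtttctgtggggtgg

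Ythdf3, chr3:16205070-16205119, plus strand: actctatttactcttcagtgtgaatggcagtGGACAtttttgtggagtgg

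Here the GGACA was kept at the same place in all 3 genes, and the list had a site only for Ythdf2.

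At the place of the Ythdf3 site, its GGACA was a match at the aligned place of Ythdf2 and not of Ythdf1. A stretch with no listed site may still have carried m6A, since the list holds only bins that passed the authors' cutoff for a difference between the genotypes. Fragments that carry a methylated base can also give reads in bins beside it. Which base lay behind a listed site was therefore not determined.

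Over the whole CDS, most RRACH matches were not shared by the 3 genes. Ythdf1 had 33 RRACH matches, of which 7 were matches in both paralogs and 21 in neither. Ythdf2 had 28, of which 7 were shared by both paralogs and 12 by neither, and Ythdf3 had 31, of which 7 were shared by both and 16 by neither. Of the 10 Ythdf2 matches that read GGAC followed by A, C or T, 3 were matches in both paralogs, and the GGACA of its site was among these. The corresponding number was 3 of 11 in Ythdf1 and 2 of 7 in Ythdf3. In the region similar to Ythdc1, RRACH matches shared by both paralogs were 4 of 9 in Ythdf1, 4 of 11 in Ythdf2 and 4 of 11 in Ythdf3. Before this region they were 3 of 21, 3 of 17 and 3 of 19. Of the 5 GGAC matches of Ythdf2 in the region, 2 were shared by both.

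A match to RRACH is frequent by its letters alone. Of all 50-nt windows of the CDS, 59.1% held at least 1 match in Ythdf1, 58.5% in Ythdf2 and 54.3% in Ythdf3, against 52.9% of such windows over all annotated coding sequences. At least 2 matches, as in the Ythdf1 site, were found in 16.8% of the windows of its own CDS and in 130 of the 622 listed sites (20.9%). A GGAC was found in 31.9% of the Ythdf2 windows, 21.6% of the Ythdf3 windows and 30.1% of the Ythdf1 windows. With 50 nt added on both sides along the transcript, the number of RRACH matches was 4 in Ythdf1, 3 in Ythdf2 and 2 in Ythdf3, and there was still no GGAC in Ythdf1.

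Set beside the whole list, the motif content of the 3 sites was not unusual. RRACH was present in 378 of 622 listed sites, or 60.8% (95% Wilson interval over sites 56.9 to 64.5, counting error only), compared with 50.5% of all 50-nt windows of coding transcripts. Among the 340 sites in a CDS the share was 56.2% (50.9 to 61.4), an interval that holds the 52.9% of all coding windows. GGAC was present in 26.4% of all listed sites (23.1 to 30.0), compared with 17.4% of all 50-nt windows of coding transcripts. Among the sites in a CDS its share was 24.1% (19.9 to 28.9), compared with 20.6% of coding windows. The GC content was 46% in the Ythdf1 site and 48% in the other two, with a median of 52% over the list.

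**Figure D3:**
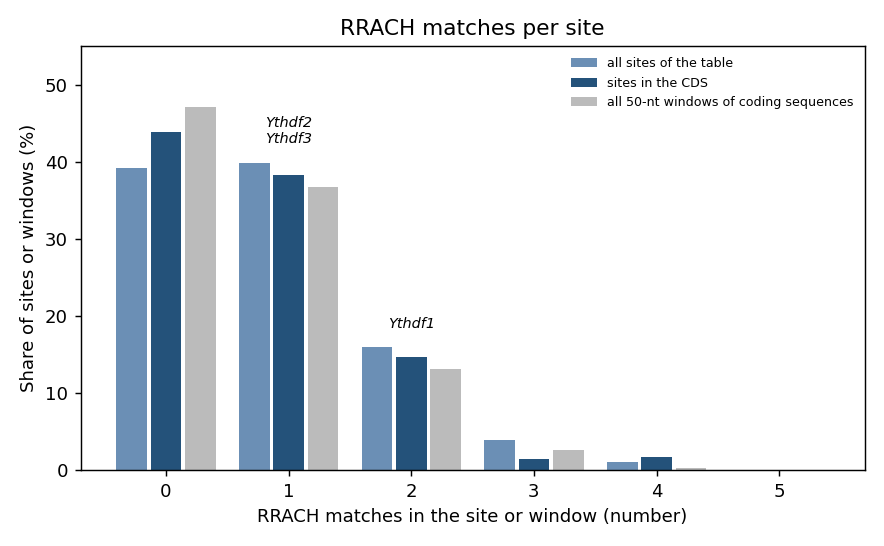
Share of sites or windows in percent (y axis) by the number of RRACH matches they hold (x axis), for all 622 sites of the list, for the 340 with the midpoint in a CDS and for all 50-nt windows of annotated coding sequences. The Ythdf2 and Ythdf3 sites hold 1 match and the Ythdf1 site 2, and 20.9% of listed sites hold at least 2.

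The location of the 3 sites was compared with the 586 listed sites that could be placed on a coding transcript. Of these, 340 (58.0%) had the midpoint in the CDS, 211 (36.0%) in the 3′UTR and 35 (5.97%) in the 5′UTR. The last exon held 340 sites (58.0%), and 158 sites (27.0%) were, like the 3 Ythdf sites, in the CDS part of an internal exon. These 158 were 46.5% of the CDS sites.

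Against all 586 placed sites, whose median host exon had 1336 nt, the Ythdf exons were of ordinary length: 54.9% of sites were in a shorter exon than that of Ythdf1, 56.7% than that of Ythdf2 and 57.9% than that of Ythdf3, and 45.1% were in an exon of at least 1521 nt. Within the class of CDS sites in internal exons they were in the upper part. The median exon of the 158 CDS sites in internal exons was 548 nt long (quartiles 158 and 1168), and the Ythdf exons were longer than 83.5% (Ythdf1), 84.8% (Ythdf2) and 85.4% (Ythdf3) of them. Of these 158 sites, 26 (16.5%, 95% Wilson interval 11.5 to 23.0) were in an exon of at least 1521 nt, the length of the shortest Ythdf exon. Of annotated internal exons, 0.339% are that long and they hold 5.98% of all internal-exon nt, and the median is 124 nt. The 26 sites include the 3 of the Ythdf genes and 3 of Apob, the gene of apolipoprotein B, which all lay in 1 exon of 7467 nt. The choice of the cutoff puts the 3 Ythdf sites in this count, and the interval treats sites of the same exon as separate. The annotated exons include those of genes that the liver does not express. These shares describe the list, which holds only bins past the authors' filter and cutoff, and are not rates of methylation.

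**Figure D4:**
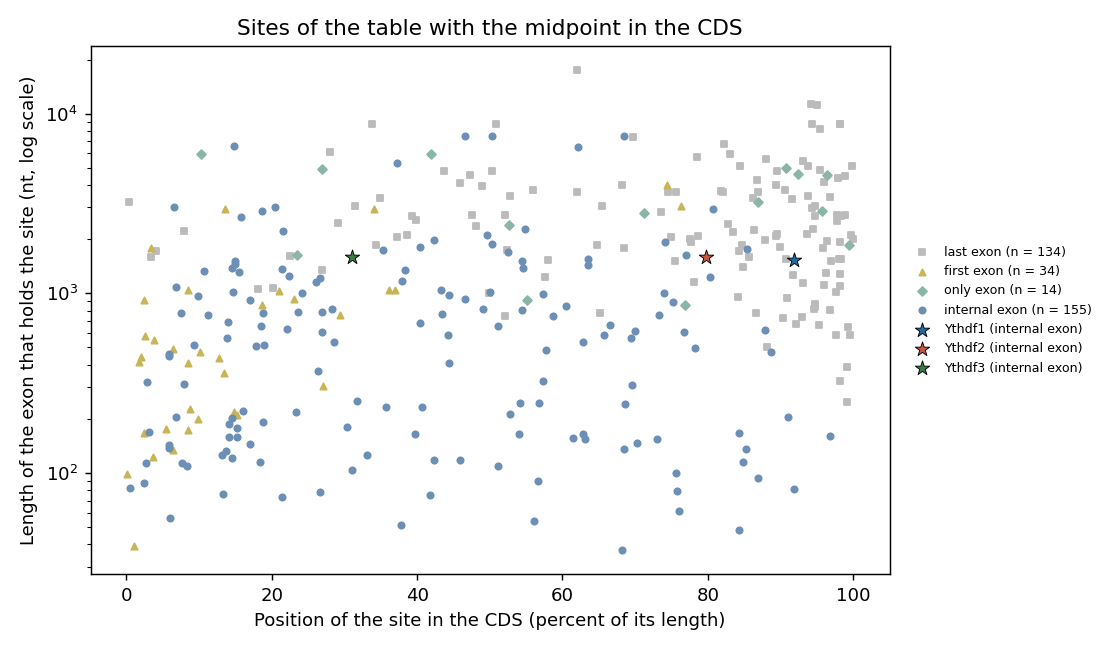
Each point is 1 of the 340 listed sites with the midpoint in a CDS, with its position in percent of the CDS length on the x axis and the length of the exon that holds it (nt, log scale) on the y axis; symbols give the kind of exon. The 3 Ythdf sites, drawn as stars, are in internal exons of 1521 to 1599 nt and spread from 31.0% to 91.8% of the CDS.

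The distance to the stop codon differed more among the 3 sites than the exon length did. The median of the 340 CDS sites was 717 nt (quartiles 244 and 1369). The Ythdf1 site was near the stop codon, with 17.1% of CDS sites nearer, the Ythdf2 site was intermediate with 30.9% nearer, and the Ythdf3 site was far, with 70.9% nearer. As a share of the CDS, the median position of the list was 54.1%, which lies between those of Ythdf3 and Ythdf2. The nearer exon junction was 95 nt away in Ythdf1, less than the median of 156 nt over the 134 unspliced CDS sites in internal exons, and 305 nt away in Ythdf2, farther than in 70.9% of those sites. In Ythdf3 it was farther than in 78.4% of them.

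Reads of a site can come from copies of the gene elsewhere, so the 3 sequences were searched in the genome. No other place matched at 95% identity over 95% of a site. The Ythdf2 site came close to this limit, however, with 47 nt of 47 identical in the processed pseudogene Gm8401 (chrX:70519140-70519186, plus strand) and 45 of 46 identical in the processed pseudogene Gm6823 (chrX:70421046-70421091, minus strand). The libraries were read as single ends of 50 nt, so a read that covers part of this site may map to Gm8401 as well as to Ythdf2. Such a read runs past the 47 matching nt, and the sequence beside the site was not compared with the pseudogene. How the authors' alignment treated such reads is not given in the sources used here, and the Ythdf2 site is uncertain to that extent. The next matches were between the paralogs themselves, with 38 nt identical over 44 nt of the Ythdf2 site and 33 nt identical over 40 nt of the Ythdf1 site, both in Ythdf3. The best other match of the Ythdf3 site had 26 identical nt over 30 nt.

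Other genes of the m6A pathway are given by the presence of a site alone. Of 21877 annotated protein-coding gene symbols, 2.61% had at least 1 listed site, a share that also counts genes that the liver does not express. Of the 5 YTH proteins, 3 had a site, which the choice of genes fixes, while the nuclear reader Ythdc1 and the helicase Ythdc2 had none. Of 12 genes of m6A writers, 2 had a site: Wtap, the adaptor that holds the Mettl3 and Mettl14 pair in nuclear speckles, with 3 sites, and Mettl16, a separate methyltransferase of U6 snRNA and Mat2a mRNA, with 1. None of 2 erasers (Fto and Alkbh5), none of 8 other readers and none of 8 stress granule genes had one. The 30 genes of deadenylation and decay include those of the CCR4-NOT deadenylase that Ythdf2 recruits. Of these 30 genes, 2 had a site: Btg2, a cofactor of the CCR4-NOT deadenylase, and Ddx6, a helicase of decapping.

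The sites of these other genes were in first or last exons. The 3 Wtap sites and the Mettl16 site were in last exons of the transcripts used. The first and second Wtap sites were 143 nt and 43 nt after the stop codon of a transcript with a CDS of only 453 nt, in its exon 6 of 6. The third was 99 nt before the stop codon of a transcript with a CDS of 1188 nt, in exon 8 of 8. The exons of that longer coding transcript do not hold the midpoints of the other Wtap sites. The Mettl16 site was 127 nt before its stop codon in exon 11 of 11. The Ddx6 site was in the 3′UTR, in exon 14 of 14 and 847 nt after the stop codon. The Btg2 site was in the CDS of exon 1 of 2. None of these 6 sites was in an internal exon, although the third Wtap site and the Mettl16 site were about as near to the stop codon as that of Ythdf1 (145 nt).

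Among the 340 CDS sites, the genes most like the median of the 3 Ythdf genes, which on both measures is the value of Ythdf2, were found from the ranks of the host exon length and of the position in percent of the CDS. The nearest was Ankrd17, with a site in an internal exon of 1631 nt at 77.0% of the CDS and 1794 nt before the stop codon. Pck2, the mitochondrial PEP carboxykinase, Kctd3 and Zfp954 followed with sites in last exons of 1713, 1589 and 1511 nt at 84.3%, 85.6% and 75.5% of the CDS, and then Ubn1 with a site in an internal exon of 1224 nt at 80.3%. The site of each of Ankrd17 and Ubn1 held 1 RRACH and that of Kctd3 held 2, while those of Pck2 and Zfp954 held none.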

How the data were processed

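Per the labels and the study's methods, poly(A) mRNA of liver was fragmented by sonication, immunoprecipitated for m6A and read as single ends of 50 nt. The authors aligned reads with Hisat2 to mm10 and ran RADAR, which counts reads in 50-nt bins on concatenated exons, adjusts IP counts for the INPUT reads of the gene, drops bins with few IP reads, fits a Poisson random effect model of genotype and merges adjacent bins past an FDR cutoff. The cutoff and versions are not given in the sources used here. The deposited list gives each site's gene, blocks, log fold change and p-value; the last 2 hold the authors' comparison and were not used. Depth is unknown and no test was made. The sequence and exact position of 1 site are not reported here.

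Block coordinates were read as counted from 1, since 86 of 86 inner block edges then fell on exon edges of GENCODE M21 (GRCm38). Gene names were found by symbol (585 sites) or older symbol (21 sites), leaving 16 sites unmatched, and 586 sites were placed on the coding transcript with the longest CDS that holds the midpoint, without its stop codon. Distances run from the midpoint to the first base of the stop codon. Motifs were counted on the transcript strand with overlaps allowed. RRACH is contained in DRACH (D is any base but C), and GGAC overlaps both. Proteins translated from the annotated CDS were aligned with MAFFT 7.526, and by Biopython 1.88 with BLOSUM62 and gap penalties of 11 and 1. BLAST+ 2.17.0 (word size 11) searched the genome. Placement and motif counting were tested on simulated data. The members, gene lists and likeness rule (the 5 smallest sums of the 2 rank differences to the members' median) were chosen with earlier results of these data known; only the members, listed genes, the genes most alike and, chosen after its values were seen, Apob are named.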

Additional observations from a re-analysis of the deposited data

How the results depend on the processing

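Of 56 alternatives to the 29 values checked, 43 left the value the same and 13 moved it. The region and the host exon length were the same in every coding transcript that holds a site. On the transcript with the longest exonic length, the CDS position became 1533 for Ythdf1, through a shorter CDS upstream, with the distance to the stop codon as before. By GGAC alone the Ythdf1 site held 0 matches. With 25 nt added on both sides the RRACH matches became 3 in Ythdf1 and 2 in Ythdf2, and with 50 nt they became 4 in Ythdf1, 3 in Ythdf2 and 2 in Ythdf3. At 80% identity over 80% of the site, 1 other genome match was found for Ythdf1 and 3 for Ythdf2. At 90% over 90%, a setting chosen after seeing the data, 2 were found for Ythdf2, both in pseudogenes. The share of sites with a motif was 56.2% for RRACH in CDS sites. Over all sites it was 69.1% for DRACH and 26.4% for GGAC. Of all 50-nt windows of coding transcripts, 62.55% held DRACH and 17.43% held GGAC. No paired analysis was possible because the list has no values per mouse. The list limits all statements to sites past the authors' cutoff. A bin is 50 nt long, but reads in it can come from a methylated base outside it, so the resolution is coarser than the bin.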
